A study of Homo sapiens with 22 samples.

Results

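The binding of the circadian transcription factors BMAL1 (ARNTL) and CLOCK was examined at 7 genes of the MLL-AF9 leukaemia programme, HOXA9, HOXA10, MEIS1, PBX3, MEF2C, MYB and CDK6. A peak belonged to a gene when its midpoint lay in the gene or within 10 kb of it, in coordinates of genome build hg19. Of 9853 listed peaks, 10 met this rule. All 10 came from the BMAL1 list of 9584 peaks, and 0 came from the CLOCK list of 269. BMAL1 peaks were listed at 4 of the 7 genes. CDK6 held 5 peaks, PBX3 held 3, and 2 peaks were shared by the neighbouring genes HOXA9 and HOXA10. MEIS1, MEF2C and MYB had no listed peak in their windows.

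The lists came from chromatin immunoprecipitation followed by sequencing (ChIP-seq) of THP-1, an established human monocytic leukaemia cell line with the MLL-AF9 fusion. Untreated THP-1 cells were fixed with 2 mM ethylene glycol bis(succinimidyl succinate) (EGS), a protein crosslinker, for 30 minutes and then with 1% formaldehyde for 30 minutes. Chromatin of these cells was precipitated with an antibody to BMAL1 or to CLOCK, with 1 library for each factor, so replicate errors could not be given. Of the 22 libraries described, the other 20 were not analysed here, among them the IgG and input controls, every NOMO-1 library and a streptavidin pull-down labelled HoxA9-bio. Peak lists hold no expression values, so neither the identity of the cells nor the activity of the genes was checked. The sequencing depth of both libraries is unknown from the files.

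MLL-AF9 joins the DNA-binding part of the histone methyltransferase MLL (KMT2A) to AF9 (MLLT3), a protein that recruits transcription elongation factors. The fusion keeps a set of genes of early blood progenitors active in leukaemia cells, with HOXA9 and its cofactor MEIS1 as the best known. BMAL1 pairs with CLOCK on DNA, and the E-box CACGTG is the typical sequence that the pair recognises. The pair activates the genes of its own repressors, which closes the feedback loop of the circadian clock.

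The E-box letters were looked up in the promoter sequences of the 7 genes to show which of them carry the motif near the start. RefSeq's table for build GRCh38.p14, which runs from 250 bases before to 50 bases after each start, held 15 windows for the 7 genes, all 7 of which matched by symbol. The letters CACGTG, which read the same on both strands, occurred in 2 windows, 1 of HOXA9 and 1 of CDK6. Among all genes with a promoter there, 8.77% of 27305 had a window with these letters, and 7.26% of 35116 windows held them. The HOXA9 sequence below holds the 250 bases before the start, chr7:27165538-27165787 in GRCh38.p14 on the minus strand. The CDK6 sequence holds 30 bases around its motif, chr7:92836526-92836555 in GRCh38.p14 on the minus strand. Capitals mark the E-box letters in both.
HOXA9: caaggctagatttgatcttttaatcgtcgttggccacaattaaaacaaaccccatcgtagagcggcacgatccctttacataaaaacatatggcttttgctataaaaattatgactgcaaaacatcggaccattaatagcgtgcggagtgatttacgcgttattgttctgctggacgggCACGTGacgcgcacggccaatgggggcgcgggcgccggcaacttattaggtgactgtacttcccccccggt
CDK6: cgaggccgcggaCACGTGcggagagccgac
The motif of HOXA9 began 71 bases before the start, and that of CDK6 at base 31 of the transcribed sequence. No listed BMAL1 or CLOCK peak overlapped the stretch from 250 bp before to 50 bp after the hg19 start of any of the 7 genes. Only the start given by each gene's hg19 coordinates was used, and further RefSeq starts, as in HOXA10, MEF2C and CDK6, were not checked. A match in these letters is a description of the sequence and shows no binding.

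CDK6, the cyclin-dependent kinase that drives early G1 with D-type cyclins, held the most BMAL1 peaks and the highest scores of the 7 genes. The gene covers chr7:92234235-92465941 and is read from the higher to the lower coordinate. A run of 4 peaks lay far from the start of CDK6, towards its end. The first in the direction of transcription, chr7:92274898-92275294, scored 27.5. It was followed by chr7:92271250-92271646 with a score of 30.5 and chr7:92268839-92269235 with a score of 27. The last of the run, chr7:92264288-92264684, had a score of 38.5, the highest among the 10 peaks. The score is the authors' own value for each peak, deposited without a stated unit, and was used only to rank peaks within the list.

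The midpoints of the 4 CDK6 peaks lay 190845 to 201455 bp from the start, at 82.4 to 86.9% of the gene's length. They were 3648, 2411 and 4551 bp apart in the direction of transcription and spanned 10610 bp in all. All 4 stood in the upper part of the BMAL1 list. The peak scoring 38.5 ranked 432 of 9584 and 15 of the 462 BMAL1 peaks of chromosome 7, and 4.68% of the list scored as high or higher. The lowest of the 4, scoring 27, ranked 1149 in the list and 40 on the chromosome.

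The fifth CDK6 peak, chr7:92463643-92464039, stood 188745 bp away from the run and 2100 bp inside the gene from its start. Its score was 11.5, against 27 to 38.5 in the run, and 78.9% of the BMAL1 list scored as high or higher. In RefSeq's GRCh38.p14 table CDK6 has a second start, 2614 bases inside the outer one. Whether the fifth peak lies at that start was not determined, because no hg19 annotation was used here. Outside the gene, the nearest BMAL1 peaks were 471068 bp past its end, with a score of 19, and 2772348 bp upstream of its start, with a score of 16.5. The 5 CDK6 peaks were thus the only listed BMAL1 peaks in a stretch of 3.48 Mb, which ends at these flanking peaks by definition. Chromosome 7 as a whole held 0.293 BMAL1 peaks per 100 kb, a density at which 5 peaks are not many for such a stretch.

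**Figure D1:**
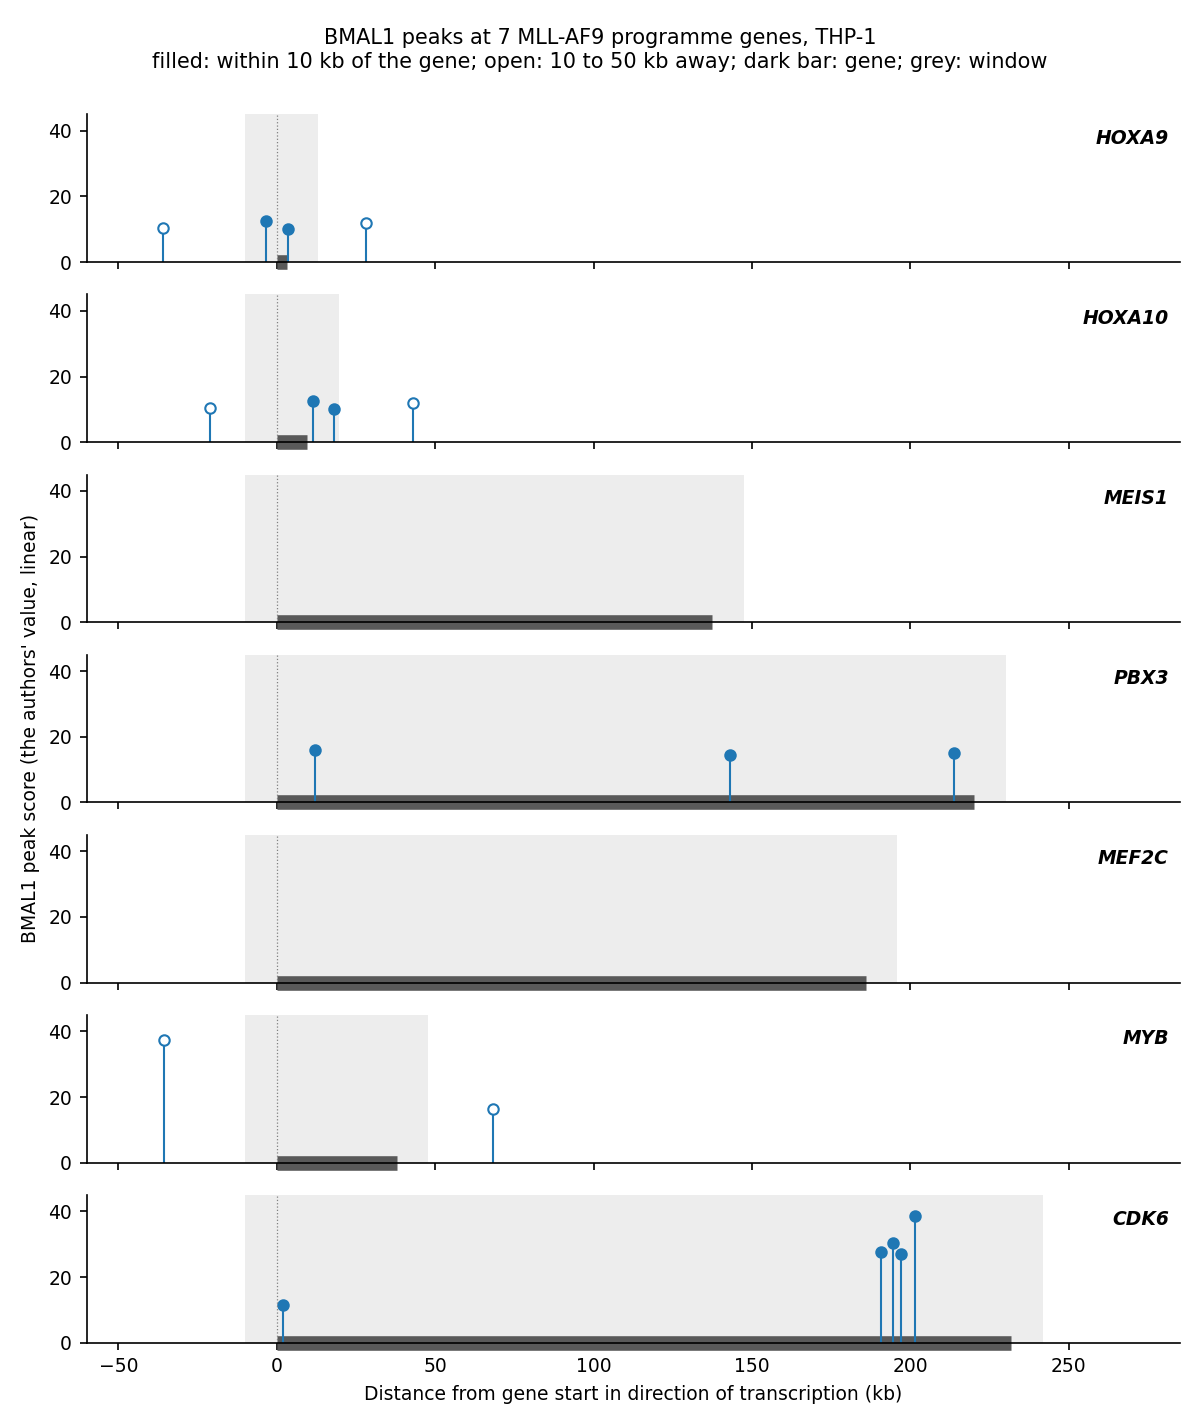
BMAL1 peaks at each of the 7 genes in THP-1 cells, with the distance from the gene start in kb on the horizontal axis and the authors' peak score on the vertical axis. Filled points are peaks in or within 10 kb of the gene, open points lie 10 to 50 kb away, the dark bar is the gene and the grey area its window. The 4 high CDK6 peaks stand together near the end of the gene, MEIS1 and MEF2C are empty, and both MYB peaks lie outside the window.

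Closely spaced runs of this kind were few in the BMAL1 list. With a run defined as 4 or more peaks whose midpoints fit within 15 kb, a limit chosen after the CDK6 peaks were seen, 4 of the 10 peaks at the 7 genes lay in a run, against 0.334% of the whole list. The list held 8 such runs, each of 4 peaks. The CDK6 run had a median score of 29, second to a run at chr5:14581427-14596349 with 29.25. The other 6 had medians of 13.5 to 17.75. The CDK6 run was the only one of the 8 in which every peak scored 27 or more. Over the list 12.8% of BMAL1 peaks reached that score, which was taken from the CDK6 run itself. No peak of any of the 8 runs overlapped a CLOCK peak, against 1.46% of the whole BMAL1 list, so a count of 0 does not set the runs apart. Because the limit was set from these peaks, the count is a description with no test.

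**Figure D2:**
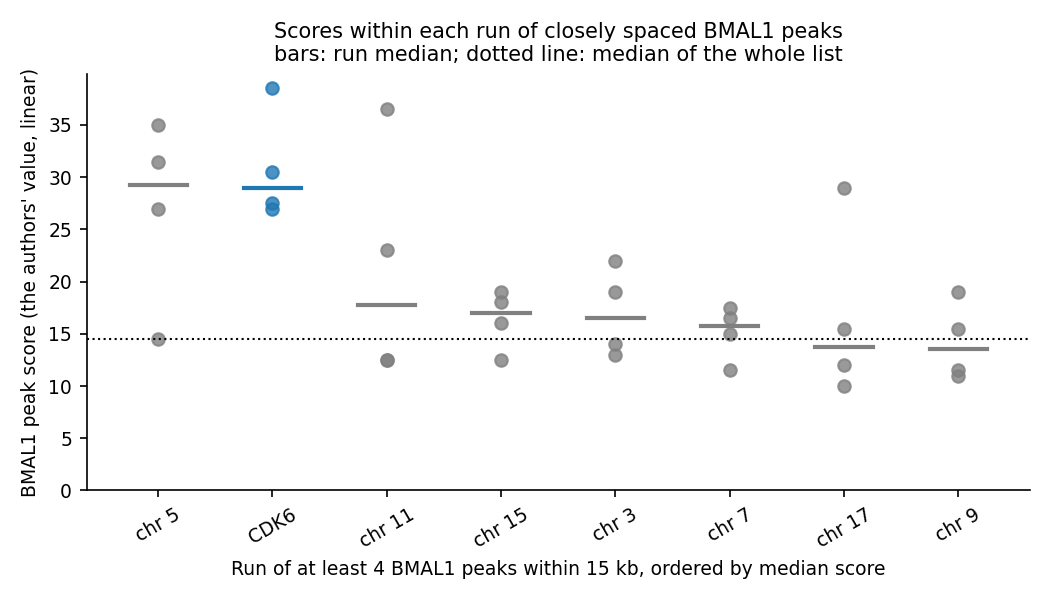
Scores of the peaks in the 8 runs of at least 4 BMAL1 peaks within 15 kb, ordered by median score and named by chromosome, with the CDK6 run in blue. Points are single peaks, bars the median of each run and the dotted line the median of all BMAL1 peaks, 14.5. The 4 CDK6 peaks lie between 27 and 38.5, all above the dotted line, whereas the run on chromosome 5 with the highest median includes a peak at 14.5.

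PBX3, a TALE-class homeodomain protein that partners HOX proteins on DNA, held 3 BMAL1 peaks, all inside the gene (chr9:128509617-128729655). The peak chr9:128521523-128521919 lay 12104 bp from the start and scored 16. A second, chr9:128652419-128652815, lay 143000 bp from the start and scored 14.5. The third, chr9:128723321-128723717, lay 6136 bp before the end of the gene and scored 15. These scores were close to the list median of 14.5, at ranks 3808, 4662 and 4348 of 9584. The 3 PBX3 peaks were spread over the gene, at 5.5, 65 and 97.2% of its length, and none had another BMAL1 peak within 10 kb.

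HOXA9 and HOXA10 are neighbouring homeobox genes of the HOXA cluster, read in the same direction, and encode transcription factors of blood progenitors. Their windows overlapped and held the same 2 peaks, both outside the genes. The peak chr7:27208352-27208748 lay between them, 3401 bp upstream of the HOXA9 start and 1660 bp past the end of HOXA10, and scored 12.5. The peak chr7:27201562-27201958 lay 297 bp past the end of HOXA9 (chr7:27202057-27205149) and 8450 bp past that of HOXA10 (chr7:27210210-27219880). Its score was 10, the lowest value in the BMAL1 list, shared by 769 peaks. The upper of the HOXA scores, 12.5, was reached or passed by 68.4% of the list, so both peaks stood in its lower part. RefSeq's gene order in GRCh38.p14 places MIR196B, the gene of the microRNA miR-196b, between HOXA9 and HOXA10 too, but its hg19 position was not used here.

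MYB, a transcription factor that maintains blood progenitors, had no listed peak in or within 10 kb of the gene (chr6:135502453-135540311). The nearest BMAL1 peak to its start, chr6:135466534-135466930, lay 35721 bp upstream and scored 37.5. That score ranked 467 in the BMAL1 list and 29 among the 595 BMAL1 peaks of chromosome 6, close to the highest CDK6 score of 38.5. The peak was outside the window and is no member. In RefSeq's gene order the nearest protein-coding gene on that side of MYB is HBS1L, and the interval between HBS1L and MYB is known for enhancers of MYB in blood cells. Whether this peak coincides with one of them was not tested. On the other side of MYB, chr6:135570456-135570852 lay 30343 bp past the end of the gene and scored 16.5.

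MEIS1 encodes the homeodomain cofactor of HOXA9, and MEF2C a MADS-box transcription factor of myeloid and lymphoid progenitors. Neither gene had a BMAL1 peak, and both lay in long stretches with none listed. The nearest BMAL1 midpoint to MEIS1 (chr2:66662532-66799891) was 1053428 bp upstream of its start, and the next on the other side was 1792512 bp past its end. The stretch free of listed peaks around MEIS1 was 2983299 bp long, and 12 of 711 such stretches on chromosome 2 were at least that long. For MEF2C (chr5:88014058-88199922) the nearest midpoints were 389919 bp upstream and 524059 bp past the end. Its stretch was 1099842 bp long, and 45 of 531 on chromosome 5 were at least that long. Long stretches hold much of a chromosome: those at least as long as the one around MEIS1 made up 19.2% of the span of chromosome 2, and those at least as long as the one around MEF2C 47.5% of the span of chromosome 5.

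The empty windows covered 157.36 kb for MEIS1, 205.865 kb for MEF2C and 57.859 kb for MYB. The median gap between BMAL1 peaks was 118 kb on chromosome 2, 110 kb on chromosome 5 and 96.1 kb on chromosome 6. Only the MYB window was shorter than the median gap of its chromosome. At the BMAL1 density of its own chromosome, the MEIS1 window would hold 0.461 peaks, the MEF2C window 0.607 and the MYB window 0.202. A count of 0 in each is therefore near what the density alone gives. Peak numbers in the BMAL1 list also had gaps, with 194 of 906 numbers absent on chromosome 2, 274 of 806 on chromosome 5 and 339 of 934 on chromosome 6. No source used here says why numbers are absent or whether they stood for peaks. With the depth also unknown, an empty window is not evidence that a gene was unbound.

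The 7 windows together held more BMAL1 peaks per length than the list as a whole. Joined where they overlapped, they covered 0.951 Mb and held 10.5 peaks per Mb (exact 95% Poisson interval 5.04 to 19.3, counting error only). The list as a whole held 3.22 peaks per Mb, measured between the outermost peaks of each chromosome, and the chromosomes of the 7 genes held 3.01. Of the 10 peaks, 5 came from CDK6, whose window held 19.9 peaks per Mb (6.45 to 46.4). CDK6 had the longest window, 251.707 kb, and was not the densest locus. Its 1.99 peaks per 100 kb compared with 1.25 for PBX3, and with 8.66 for HOXA9 and 6.74 for HOXA10, whose short windows held the same 2 peaks. At the density of its chromosome, the CDK6 window would hold 0.738 peaks, PBX3 0.662, HOXA9 0.0677 and HOXA10 0.087. Without CDK6 the joined windows held 7.15 peaks per Mb (2.32 to 16.7), an interval that includes the value of the list. The intervals treat peaks as independent, which neighbouring peaks are not. Peaks near genes in general were not counted, since no hg19 annotation was used here, so the density is not shown to be particular to these genes.

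Scores at the 7 genes covered the lower and middle part of the list and part of its upper end. The 10 scores had a median of 15.5 and lay between 10 and 38.5, against 10 to 320.5 and a median of 14.5 over the whole list. At or above the list median were 7 of the 10 peaks (70%, exact 95% interval 34.8 to 93.3%), against 51.8% of the list. Without CDK6 the median was 14.5, with 3 of 5 peaks at or above it. The loci differed from each other in score: the 2 HOXA peaks scored at most 12.5, the 3 PBX3 peaks 14.5 to 16, and 4 of the 5 CDK6 peaks 27 or more. Another BMAL1 peak lay within 10 kb of 6 of the 10, against 20.4% of the list, namely of the 2 HOXA peaks and the 4 peaks of the CDK6 run. These peaks are neighbours of each other, so the 6 are only 2 groups and not separate observations. Without CDK6 the count was 2 of 5 (40%), the HOXA pair.

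**Figure D3:**
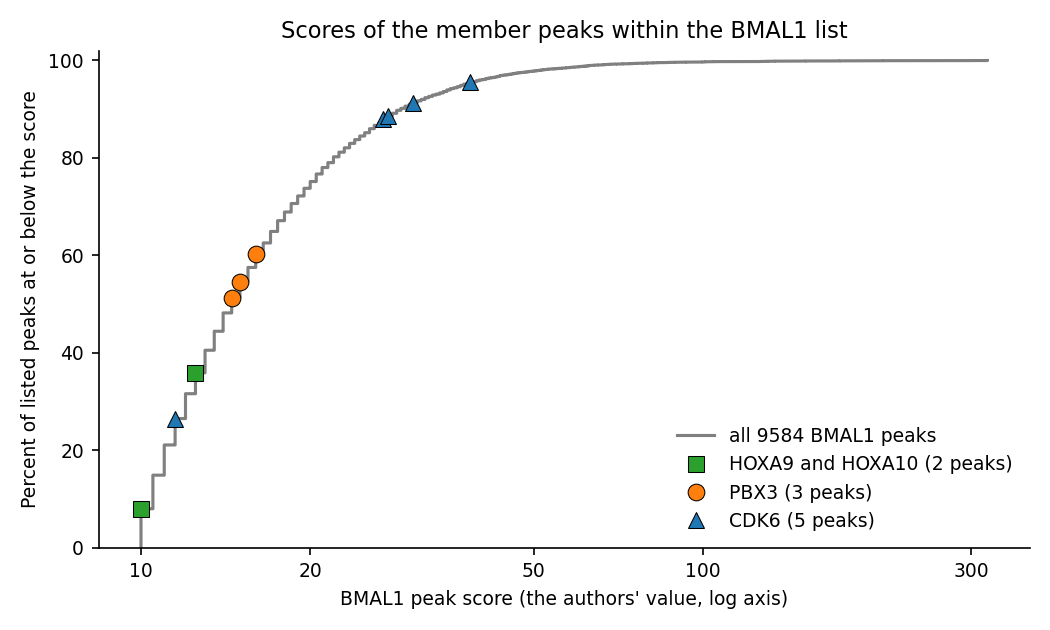
Cumulative distribution of the 9584 BMAL1 scores (grey line, log axis), giving the percent of listed peaks at or below each score, with the 10 peaks at the 7 genes as symbols by locus. The HOXA peaks lie at 10 and 12.5, the PBX3 peaks at 14.5 to 16, and 4 CDK6 peaks at 27 to 38.5, while the fifth CDK6 peak is at 11.5.

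CLOCK was not listed at any of the 7 genes. None of the 10 BMAL1 peaks overlapped a CLOCK peak (0%, exact 95% interval up to 30.8%), against the same 1.46% of the list, so 0 of 10 does not set them apart either. The authors' deposited table of 140 common regions held 0 regions in these windows. At the density of the CLOCK list the joined windows would hold 0.0859 peaks, so the list is too short to show a lack of CLOCK at these genes. In the CLOCK list 93.1% of peak numbers were absent, again for no stated reason.

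The nearest CLOCK peaks lay 482743 to 10669053 bp from the 7 gene starts. With 0.0903 peaks per Mb over the whole CLOCK list, long distances do not set these genes apart. The nearest to HOXA9 and HOXA10 was chr7:27702357-27702889, scoring 22.5, at 497474 and 482743 bp from their starts. For PBX3 it was chr9:127533675-127534207, scoring 36, at 975676 bp upstream, the highest-scoring of the 13 CLOCK peaks of chromosome 9 and one that overlapped a BMAL1 peak. At the other 4 genes the nearest CLOCK midpoint was at least 7998914 bp from the start, the distance for CDK6. The greatest distance was 10669053 bp, for MYB.

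**Figure D4:**
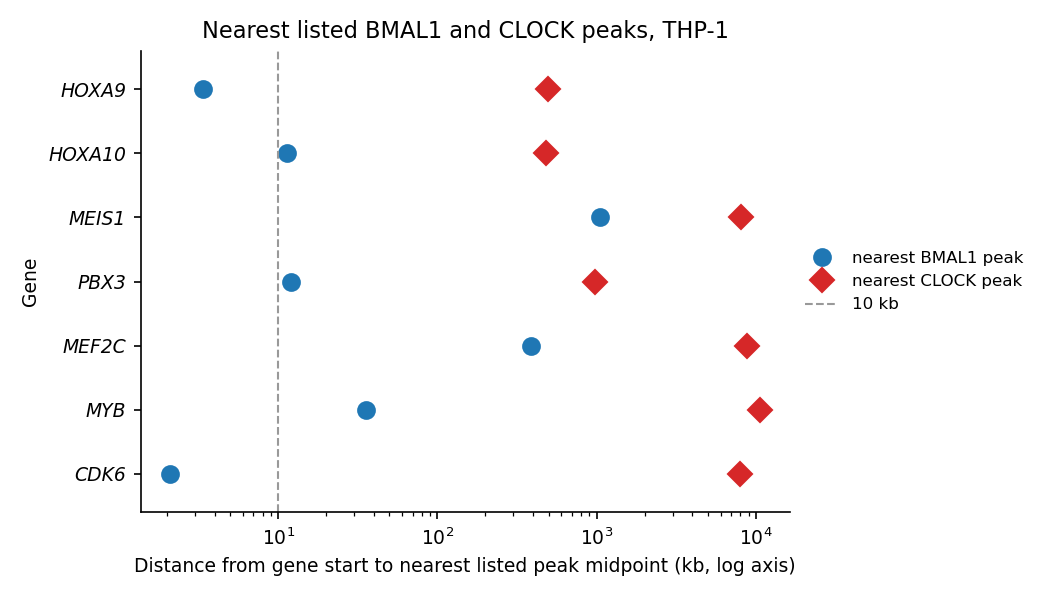
Distance in kb (log axis) from each gene start to the nearest listed BMAL1 peak (circles) and CLOCK peak (diamonds), with a dashed line at 10 kb. BMAL1 distances run from 2.1 kb at CDK6 to 1053428 bp at MEIS1, and the CLOCK peak is farther than the BMAL1 peak at each of the 7 genes. With 269 CLOCK peaks listed against 9584 BMAL1 peaks, this order does not set the genes apart.

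Of the 10 peaks, 2 lay outside the genes, at 297 bp from HOXA9 and 1660 bp from HOXA10, the nearest of the 7 genes to each. The first of these lay closest to the limit of 10 kb when measured from HOXA10, at 8450 bp past its end. The next peaks beyond the limit were chr7:27240834-27241230, scoring 10.5 at 21152 bp upstream of HOXA10, and chr7:27176698-27177094, scoring 12 at 25161 bp past the end of HOXA9. With the 2 peaks that flank MYB they were the only BMAL1 peaks between 10 and 50 kb from the genes. No CLOCK peak lay within 50 kb of any of them.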

How the data were processed

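Peak lists of 1 BMAL1 and 1 CLOCK ChIP-seq library of THP-1 cells were used. Build hg19 and the tools HOMER 4.7.2, Bowtie 0.12.7, Picard and SAMtools 1.2 are listed, without their roles, per the submitters' processing notes, and HOMER per the file columns. Each score is a value deposited by the authors, in steps of 0.5; no source used here gives its unit, threshold, control or filters. A threshold or filter that dropped peaks could leave a gene without one.

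Gene coordinates were those of the rule that defines the loci, and directions of transcription were checked against RefSeq. A peak entered by its midpoint, and overlap meant at least 1 bp. Intervals are exact (Poisson, or Clopper-Pearson) at 95% and reflect only the error of counting. No test between conditions was made, as each factor had 1 library. The genes and lists were chosen with earlier results of these data known. Every peak at the 7 genes is named, as are the nearest peaks to genes without one; runs and other flanking peaks were named after their values were seen. A planned list of other programme genes, and exons and introns, were not placed because no hg19 annotation was used here. Counting was tested on simulated peaks. Alternatives covered the flank, score limit, placement and overlap rule. Figures were drawn with matplotlib 3.10.9; scipy 1.17.1 gave the intervals, and pandas 2.3.3 and numpy 2.4.6 under Python 3.11.15 the rest.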

Additional observations from a re-analysis of the deposited data

How the results depend on the processing

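Of 43 alternatives to 8 results, 41 left the value within its interval or within 1.5 times the count, and 2 moved it. For the median score, the interval was only the range of the 10 scores without the lowest and the highest, 11.5 to 30.5. That range is wide, so the median could hardly leave it. Widening the flank to 100 kb, an alternative chosen after the data were seen, raised the BMAL1 peaks from 10 to 18, as more sequence is covered; flanks of up to 50 kb gave 8 to 14. CLOCK peaks at the genes and BMAL1 peaks overlapping CLOCK stayed at 0 under every alternative run. The limit for a run of 4 peaks was also chosen after the data were seen. With 10000 bp in place of 15000 bp, 0 peaks at the genes lay in a run, since the CDK6 run spans 10610 bp. Limits of 12000 to 30000 bp gave 4. Over the whole list the share in a run was 0.0417% at 10000 bp, 0.0835% at 12000 bp, 0.793% at 20000 bp and 2.86% at 30000 bp. The contrast with the list thus shrank as the limit grew from 12000 bp, although the count stayed at 4. The median score was 14.5 to 21.5, the higher value without the flanks, which removes the HOXA peaks. No paired analysis was possible because each factor had 1 library. Depth is unknown, and many values could hardly move with so few peaks, so the tally is no measure of robustness.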
